A study of Homo sapiens with 12 samples.

Results

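Lysosomal enzymes, lysosomal membrane proteins and subunits of the lysosomal proton pump were followed in MDA-MB-231, an established human line of triple-negative breast cancer. A list of 51 named genes defined the set, and 50 of them had a probe set annotated with that 1 symbol, out of 11963 genes on the arrays. GLB1, the lysosomal beta-galactosidase, was not analysed here. By role the 50 were 12 proteases, 10 glycosidases, 5 sulfatases, 7 genes of lipid handling, 4 membrane proteins, the regulator TFEB and 11 genes of the proton pump.

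Cells grown in serum-supplemented DMEM were treated for 24 h with the vehicle DMSO, rotenone, digoxin or manassantin, and RNA was hybridized to GeneChip arrays, 3 arrays in each of 4 groups. The design text names digitoxin where the sample titles name digoxin, so which of these cardiac glycosides the cells received is open, and it names the lignan as manassantin A. No source used here gives the doses or the oxygen level. Rotenone inhibits respiratory complex I, cardiac glycosides block the sodium pump, and the study's title ties manassantin A to Hsp90 and chaperone-mediated autophagy, a route that ends in the lysosome. Whether the 3 arrays of a group are separate cultures is not stated. The p-values therefore rest on the spread among these arrays, and that spread may be technical only. All 6 markers fixed as high in the line (VIM, CD44, EGFR, CAV1, AXL and MSN) lay between percentiles 87.6 and 99.8 of all genes. The luminal marker PGR lay at percentile 1.90 and CDH1 at percentile 12.2, while ESR1, ERBB2, EPCAM and GATA3 lay between percentiles 45.6 and 68.2. Of the leukocyte and macrophage markers 5 of 5 were dim, meaning a mean under the 40th percentile, and of the fibroblast markers 4 of 5.

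Lysosomes break down proteins, glycans and lipids with a large set of acid hydrolases, many of them delivered through the mannose 6-phosphate route. The vacuolar ATPase, or V-ATPase, keeps the lumen acid: its cytosolic V1 part hydrolyses ATP and its membrane V0 part moves protons. TFEB and its relatives TFE3 and MITF bind E-box letters of the CLEAR type near the starts of many of these genes, and mTORC1 on the lysosomal surface holds these factors in the cytoplasm in fed cells.

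RefSeq promoter windows (GRCh38.p14, 250 bases before to 50 after the start) were matched for 34 of the 50 genes. They are shown because a common factor's letters are part of how the set is known. Both strands were searched for the E-box core CACGTG, for the longer GTCACGTG, and for a palindrome that adds AC to its 3′ end; each contains the shorter ones. The core was in 11 of 34 windows (32.4%), against 9.51% of 9563 tested genes with a window and 7.26% of all 35116 windows. GTCACGTG was in 8 of 34 (23.5%), against 3.86% of tested genes, and the palindrome in 3 of 34 (8.82%), against 0.701%. The 3 genes with the palindrome were GAA, GALNS and MCOLN1. LAMP1 had 5 cores upstream of its start, the pump subunit genes ATP6V0B and ATP6V0D1 had 2 and 1, and NEU1 had 1. The stretches below lie upstream of the start and run 5′ to 3′ on the gene's strand, with capitals marking the core and its neighbours as far as they match the palindrome on either strand.
GAA, chr17:80101490-80101569, plus strand: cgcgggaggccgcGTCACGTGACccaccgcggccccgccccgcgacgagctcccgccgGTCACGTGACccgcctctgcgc
GALNS, chr16:88857079-88857158, minus strand: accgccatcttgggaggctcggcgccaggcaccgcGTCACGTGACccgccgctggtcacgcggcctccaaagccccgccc
MCOLN1, chr19:7522544-7522623, plus strand: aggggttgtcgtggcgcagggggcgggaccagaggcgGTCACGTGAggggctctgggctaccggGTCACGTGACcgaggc
LAMP1, chr13:113297035-113297114, plus strand: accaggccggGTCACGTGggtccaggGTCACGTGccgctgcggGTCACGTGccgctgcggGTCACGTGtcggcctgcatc
ATP6V0B, chr1:43974875-43974954, plus strand: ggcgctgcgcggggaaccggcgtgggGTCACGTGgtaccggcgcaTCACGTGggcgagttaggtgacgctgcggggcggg
ATP6V0D1, chr16:67481174-67481253, minus strand: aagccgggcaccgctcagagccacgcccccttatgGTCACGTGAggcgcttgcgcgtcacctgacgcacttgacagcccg
NEU1, chr6:31862905-31862984, minus strand: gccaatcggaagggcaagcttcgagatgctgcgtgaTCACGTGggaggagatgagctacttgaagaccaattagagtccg
A match is a description of letters and says nothing of binding in these cells. With digoxin, the core was in 5 of 17 windows of genes that rose, in 6 of 14 of genes that did not pass the test and in 0 of 3 of genes that fell. Of the 3 genes with the palindrome none passed against DMSO on the deposited scale, where limma gave MCOLN1 an adjusted p of 0.344 with manassantin, 0.103 with rotenone and 0.238 with digoxin. With digoxin all 3 were called higher under quantile normalization and after centring, where MCOLN1 stood at 0.22 (adjusted p = 0.00334) and 0.26 (adjusted p = 0.000928), and MCOLN1 was called with rotenone when dim genes were left out (0.15, adjusted p = 0.0412). Of all 11963 genes, 3543 were higher with digoxin under quantile normalization and 6952 after centring.

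Values are log2 intensities of each gene's brightest probe set, and each difference is between the log2 means of a pair of groups, n = 3 arrays per group, with its standard error (SE) from limma fitted to all genes. A gene is called where its Benjamini-Hochberg adjusted p over all 11963 genes was under 0.05. With digoxin 29 of 50 lysosomal genes were called against DMSO, 24 higher and 5 lower, beside 54.8% of all genes called, 28% higher and 26.9% lower. The share called was thus near that of all genes, while 48% of the set rose and 10% fell. The median difference was 0.15 in the set and 0.07 over all genes. With rotenone 5 were higher and 0 lower, beside 6.94% of all genes called, 3.55% higher and 3.39% lower, with a median of 0.06 against 0.01 over all genes. With manassantin 0 were called by limma, beside 0.97% of all genes, 0.853% higher and 0.117% lower, although 14 reached an unadjusted p under 0.05, all 14 higher. Of all genes 15.8% reached that level, in either direction. The 5 genes that rose with rotenone, NEU1, NPC1, ATP6V0B, ATP6V0E1 and ATP6V1B2, also rose with digoxin, and both comparisons use the same 3 DMSO arrays. The arrays did not overlap DMSO for 30 of the 50 genes with digoxin, beside 61.9% of all genes, and for 19 with rotenone, beside 31.2%. A further 21 genes were called against DMSO with none of the compounds.

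**Figure D1:**
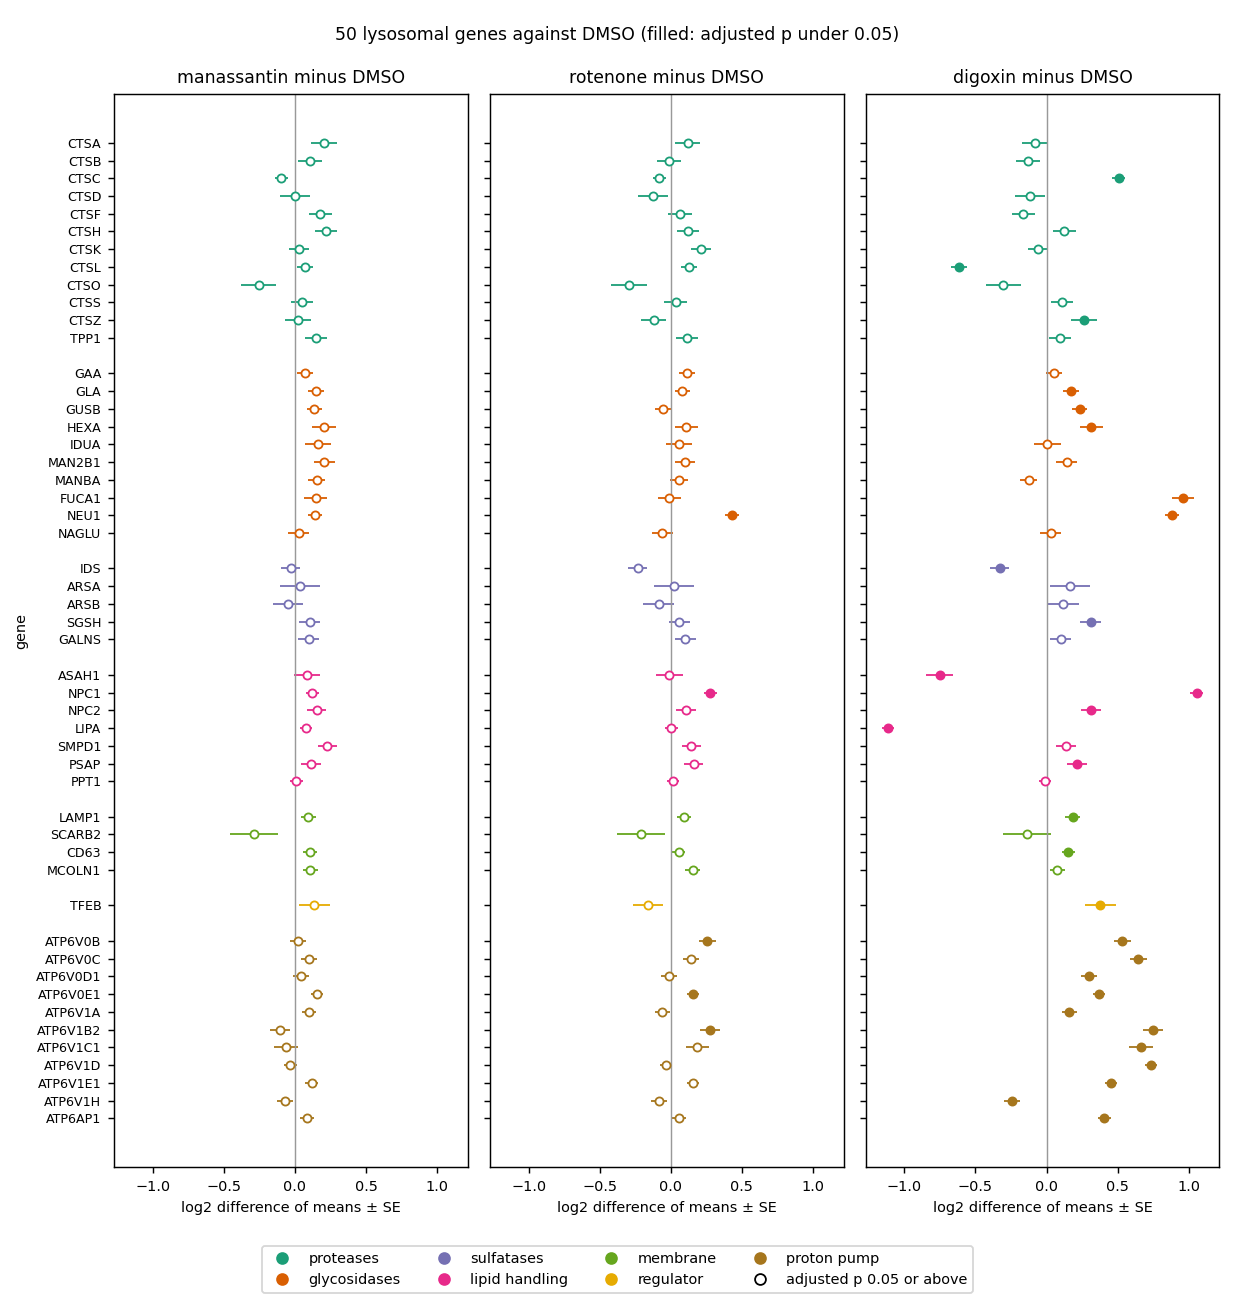
Log2 difference of group means (horizontal axis, ± SE, 3 arrays per group) of each of the 50 lysosomal genes (rows, coloured by role) for manassantin, rotenone and digoxin minus DMSO. Filled points had an adjusted p under 0.05: 0 with manassantin, 5 with rotenone and 29 with digoxin, where LIPA lay at -1.12 and NPC1 at 1.06.

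The scale of the digoxin arrays bears on small differences. Centring each array on its median moved the median of all genes by 0.187 for digoxin against DMSO, and the members' split from 24 higher and 5 lower to 36 and 3. The split over all 11963 genes moved the same way, from 3347 higher and 3214 lower to 6952 and 2158. LIPA, ASAH1, CTSL, NPC1, FUCA1, NEU1 and CTSC kept their direction and call when centred, and IDS (-0.14, adjusted p = 0.0538) and ATP6V1H lost theirs. The arrays report each transcript relative to the other RNA on the array, so in these bulk samples fewer cells and less RNA per cell cannot be told apart.

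Of the 12 cathepsins and other lysosomal peptidases, digoxin raised CTSC and CTSZ and lowered CTSL, beside 28% of all genes higher and 26.9% lower. None passed with rotenone or manassantin, beside 6.94% and 0.97% of all genes called. CTSL, the cysteine protease cathepsin L, read 9.64, 9.66 and 9.56 in the DMSO arrays, 9.77, 9.63 and 9.68 with manassantin, 9.78, 9.74 and 9.72 with rotenone and 9.08, 9.02 and 8.92 with digoxin. The digoxin arrays lay below all 9 others, and the difference from DMSO was -0.62 ± 0.057 (adjusted p = 1.71e-06). It was 0.69 higher with manassantin than with digoxin (adjusted p = 6.1e-07) and 0.74 higher with rotenone (adjusted p = 3.93e-07). CTSC, cathepsin C, which activates serine proteases of granules by trimming their ends, went the other way. It read 9.79, 9.77 and 9.81 with DMSO, 9.68, 9.65 and 9.75 with manassantin, 9.65, 9.75 and 9.73 with rotenone and 10.29, 10.32 and 10.27 with digoxin. The rise of 0.51 ± 0.046 over DMSO (adjusted p = 1.68e-06) was many times the spread within a group.

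CTSZ, the carboxypeptidase cathepsin Z, read 9.06, 9.21 and 9.28 with DMSO and 9.27, 9.54 and 9.52 with digoxin. These arrays overlapped, and the rise of 0.26 ± 0.089 (adjusted p = 0.0246) was lost without DMSO replicate 1 (adjusted p = 0.0987), digoxin replicate 2 (adjusted p = 0.091) or digoxin replicate 3 (adjusted p = 0.0807). The other 9 did not pass with any compound. CTSB and CTSD, widely expressed cathepsins, stood at -0.13 and -0.12 with digoxin, and CTSB at 0.10 and CTSD at 0.00 with manassantin. CTSO, a little studied cysteine cathepsin, stood at -0.26 with manassantin, -0.29 with rotenone and -0.31 with digoxin without passing (adjusted p = 0.344, 0.2 and 0.0539). CTSK, the collagen-cleaving cathepsin of osteoclasts, was dim here and stood at 0.21 with rotenone (adjusted p = 0.097).

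Glycosidases clip sugars one by one from glycoproteins and glycolipids, and with digoxin 5 of 10 rose and 0 fell, beside 28% of all genes higher and 26.9% lower. GAA, MAN2B1 and NAGLU were called higher as well under quantile normalization and after centring, which made 8 of 10. Of all 11963 genes, 3543 were higher and 2955 lower under quantile normalization, and 6952 and 2158 after centring. NEU1, the neuraminidase that removes sialic acid, read 8.62, 8.51 and 8.52 with DMSO, 8.72, 8.72 and 8.63 with manassantin, 9.02, 8.95 and 8.97 with rotenone and 9.46, 9.45 and 9.38 with digoxin. The 4 groups did not overlap. NEU1 was higher than with DMSO by 0.43 ± 0.051 with rotenone (adjusted p = 0.000471) and by 0.88 ± 0.051 with digoxin (adjusted p = 2.98e-08). Manassantin gave 0.14 (95% interval 0.03 to 0.25, adjusted p = 0.2). Its level was lower with manassantin than with rotenone, at -0.29 ± 0.051 (adjusted p = 0.0053), and lower with rotenone than with digoxin, at -0.45 ± 0.051 (adjusted p = 1.07e-05).

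FUCA1, the alpha-fucosidase, had the largest rise among the glycosidases. It read 9.37, 9.24 and 9.16 with DMSO, 9.56, 9.34 and 9.31 with manassantin, 9.37, 9.16 and 9.21 with rotenone and 10.18, 10.27 and 10.19 with digoxin. Only the digoxin arrays stood apart, by 0.96 ± 0.08 over DMSO (adjusted p = 7.52e-07), a fold of 1.94. HEXA, the alpha subunit of the hexosaminidase that degrades GM2 ganglioside, read 8.68, 8.47 and 8.49 with DMSO and 8.98, 8.83 and 8.77 with digoxin, a rise of 0.31 ± 0.081 (adjusted p = 0.00616). Manassantin stood at 0.20 (adjusted p = 0.245), with 8.85, 8.74 and 8.65, overlapping DMSO. GUSB, the beta-glucuronidase, read 9.71, 9.66 and 9.57 with DMSO, 9.85, 9.74 and 9.76 with manassantin, 9.66, 9.58 and 9.54 with rotenone and 9.92, 9.84 and 9.87 with digoxin. The digoxin arrays lay above DMSO and rotenone and met the highest manassantin array, with a rise of 0.23 ± 0.054 over DMSO (adjusted p = 0.00328).

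GLA, the alpha-galactosidase of globotriaosylceramide, rose by 0.17 with digoxin (adjusted p = 0.0189), near the threshold. It no longer passed in 3 of the 6 fits that left out an array: without DMSO replicate 1 or 3 (adjusted p = 0.0708 and 0.0554) or digoxin replicate 2 (adjusted p = 0.0765). GAA, the glycogen-degrading alpha-glucosidase with the paired palindromes printed above, stood at 0.07 with manassantin, 0.11 with rotenone and 0.05 with digoxin. All 10 glycosidases had a positive difference with manassantin, from 0.02 for NAGLU to 0.21 for MAN2B1, an alpha-mannosidase, with a median of 0.15 and 0 called. Over all genes 6285 of 11963 differences were positive, with a median of 0.01.

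Of the 5 sulfatase genes, digoxin raised SGSH and lowered the chosen probe set of IDS, beside 28% of all genes higher and 26.9% lower. SGSH, the heparan sulfamidase, read 7.41, 7.47 and 7.43 with DMSO and 7.69, 7.68 and 7.87 with digoxin, without overlap (0.31 ± 0.073, adjusted p = 0.00333). IDS, the iduronate sulfatase, read 9.86, 9.81 and 9.78 with DMSO, 9.63, 9.52 and 9.59 with rotenone and 9.64, 9.37 and 9.45 with digoxin. The digoxin difference was -0.33 ± 0.067 (adjusted p = 0.00121), and rotenone stood at -0.23 (adjusted p = 0.0608). The direction for IDS depended on the probe set. Of its 9 probe sets, the next brightest was also lower with digoxin (-0.20, adjusted p = 0.0157 over all probe sets), and 2 were higher, by 0.46 (adjusted p = 1.85e-05) and 0.27 (adjusted p = 0.00598). The mean of all 9 stood at 0.06 (adjusted p = 0.353). ARSA and ARSB were dim, and GALNS stood at 0.10 with each of the 3 compounds.

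**Figure D2:**
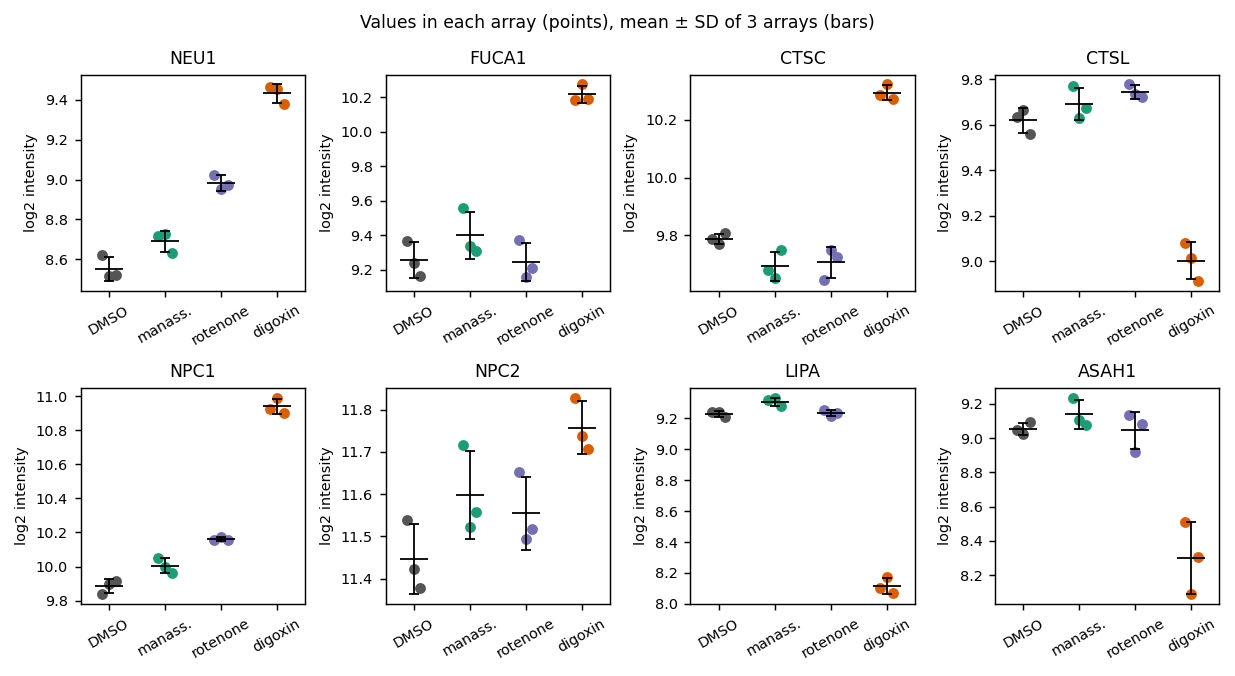
Log2 intensity in each array (points) with the mean ± SD of 3 arrays (bars) for 4 hydrolase genes (upper row) and 4 lipid handling genes (lower row) in the 4 groups; each panel has its own vertical scale, which does not start at 0. With digoxin NEU1, FUCA1, CTSC, NPC1 and NPC2 lay above all DMSO arrays and CTSL, LIPA and ASAH1 below them.

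Of the 7 genes of lipid handling, LIPA and ASAH1 fell with digoxin and NPC1, NPC2 and PSAP rose, beside 28% of all genes higher and 26.9% lower. LIPA, the acid lipase that frees cholesterol and fatty acids from lipoprotein lipids, read 9.24, 9.24 and 9.21 with DMSO, 9.32, 9.33 and 9.28 with manassantin, 9.25, 9.21 and 9.24 with rotenone and 8.10, 8.17 and 8.07 with digoxin. Its fall by 1.12 on the log2 scale (SE 0.044, adjusted p = 1.51e-09), or 2.17-fold, was the largest change of the 50 genes against DMSO. ASAH1, the acid ceramidase, read 9.05, 9.02 and 9.09 with DMSO, 9.24, 9.10 and 9.08 with manassantin, 9.13, 8.92 and 9.08 with rotenone and 8.51, 8.09 and 8.30 with digoxin. Digoxin lowered it by 0.75 ± 0.094 (adjusted p = 2.45e-05). A dimmer probe set of ASAH1 was also lower, at -0.73 (adjusted p = 6.93e-06 over all probe sets), while the second brightest stood at 0.02 (adjusted p = 0.811).

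NPC1, the membrane transporter that moves cholesterol out of the lysosome, rose with both rotenone and digoxin. It read 9.84, 9.90 and 9.92 with DMSO, 10.05, 10.00 and 9.96 with manassantin, 10.16, 10.18 and 10.15 with rotenone and 10.93, 10.99 and 10.90 with digoxin. No group overlapped another. NPC1 was higher than with DMSO by 0.28 ± 0.046 with rotenone (adjusted p = 0.00416) and by 1.06 ± 0.046 with digoxin (adjusted p = 3.27e-09), a fold of 2.08, and it stood at 0.12 with manassantin (95% interval 0.02 to 0.22, adjusted p = 0.221). Its other, dim probe set did not pass with rotenone (-0.20, adjusted p = 0.346) or digoxin (0.10, adjusted p = 0.431), and with the mean of both the rotenone difference was 0.04 (adjusted p = 0.799). NPC2, the soluble protein that hands cholesterol to NPC1, read 11.54, 11.42 and 11.38 with DMSO and 11.83, 11.74 and 11.71 with digoxin. It rose by 0.31 ± 0.069 (adjusted p = 0.00228).

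PSAP, the precursor of the saposins that help enzymes reach sphingolipids, rose by 0.21 with digoxin (adjusted p = 0.0225). It did not pass without DMSO replicate 2 or 3 (adjusted p = 0.0565 and 0.0934) or digoxin replicate 1 (adjusted p = 0.0811). The call was also lost under quantile normalization (0.16, adjusted p = 0.0854) and as the mean of its probe sets (0.19, adjusted p = 0.0582). PPT1, which removes palmitate from proteins, differed by -0.01 with digoxin, and SMPD1, the acid sphingomyelinase, by 0.14 (adjusted p = 0.105). With manassantin SMPD1 had the largest positive difference of the 50 genes, 0.23 (95% interval 0.08 to 0.37, adjusted p = 0.129).

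Among the membrane proteins, LAMP1, the most abundant glycoprotein of the lysosomal membrane, read 10.77, 10.74 and 10.71 with DMSO, 10.89, 10.86 and 10.75 with manassantin, 10.86, 10.84 and 10.79 with rotenone and 10.98, 10.92 and 10.87 with digoxin. It rose with digoxin by 0.18 ± 0.051 (adjusted p = 0.00943), but not under quantile normalization (0.11, adjusted p = 0.0911). CD63, a tetraspanin of late endosomes and lysosomes, read 11.69, 11.69 and 11.65 with DMSO, 11.79, 11.78 and 11.78 with manassantin, 11.78, 11.76 and 11.66 with rotenone and 11.88, 11.81 and 11.80 with digoxin. Its rise of 0.15 ± 0.047 with digoxin (adjusted p = 0.0164) was lost without DMSO replicate 3 (adjusted p = 0.0563) or digoxin replicate 1 (adjusted p = 0.0583).

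MCOLN1, the calcium channel mucolipin 1, read 7.11, 7.21 and 7.17 with DMSO, 7.32, 7.23 and 7.27 with manassantin, 7.38, 7.33 and 7.25 with rotenone and 7.27, 7.27 and 7.18 with digoxin. The rotenone and manassantin arrays lay above DMSO without a call (0.15 and 0.11). SCARB2, the receptor that carries glucocerebrosidase, read 7.40, 6.92 and 7.17 with DMSO, 7.19, 6.50 and 6.93 with manassantin, 7.11, 6.74 and 7.02 with rotenone and 7.16, 7.04 and 6.87 with digoxin. Its groups overlapped throughout, with the widest spread of these 4 genes, and none of its differences passed. LAMP2, which is no member of the set and carries chaperone-mediated autophagy as its LAMP2A form, stood at 0.08 with manassantin, 0.05 with rotenone and -0.05 with digoxin (adjusted p = 0.645, 0.756 and 0.573), and the probe set was not resolved into splice forms here.

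TFEB read 6.40, 6.27 and 6.12 with DMSO, 6.47, 6.33 and 6.40 with manassantin, 6.33, 6.03 and 5.95 with rotenone and 6.63, 6.49 and 6.80 with digoxin. Digoxin raised it by 0.38 ± 0.11 (adjusted p = 0.01), and its other probe set passed too (0.21, adjusted p = 0.0317 over all probe sets). Rotenone stood at -0.16 against DMSO (adjusted p = 0.446) and at -0.54 against digoxin (adjusted p = 0.00109). Messenger levels do not report where TFEB protein is in the cell. In a list of 16 measured genes of the related factors and of mTORC1 signalling at the lysosome, digoxin raised 6 and lowered 6, beside 54.8% of all genes called. LAMTOR3, a subunit of the Ragulator scaffold, rose by 1.01, while RRAGB, a Rag GTPase, was 2.01-fold lower (adjusted p = 2.69e-08) and PPP3CB, a calcineurin subunit, stood at -1.08. RRAGB was dim over all arrays. The TFEB relatives MITF and TFE3, named after their values were seen, rose by 0.97 and 0.78 (adjusted p = 9.41e-08 and 8.36e-07). A further relative, TFEC, was dim, with a mean of 2.67 with DMSO and 2.75 with digoxin. With rotenone 3 of the 16 rose and 1 fell, beside 6.94% of all genes called, led by FLCN, the folliculin gene, at 0.52 ± 0.079 (adjusted p = 0.00263), RRAGC at 0.25 and RRAGD at 0.24 (0.10 as the mean of its probe sets). FLCN lay just above the dim cut, at percentile 41.8 over all arrays. The calls of RRAGC and RRAGD were each lost without 2 of the 6 arrays. For RRAGC these were DMSO replicate 3 and rotenone replicate 1 (adjusted p = 0.0589 and 0.0551), and for RRAGD they were DMSO replicate 2 and rotenone replicate 2 (adjusted p = 0.06 and 0.0525). With manassantin LAMTOR2, another Ragulator subunit, was called at 0.32 (adjusted p = 0.0475), and it did not pass with any of the 6 arrays left out (adjusted p from 0.0714 to 0.206).

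All 11 genes of the proton pump were called with digoxin, 10 higher and 1 lower. Of all genes 54.8% were called, 28% higher and 26.9% lower. The median of the pump genes was 0.45, against 0.07 over all genes. With each array centred on its median 10 were higher and 0 lower, where 6952 of all 11963 genes were higher and 2158 lower. All 4 V0 subunits of the set were higher, while other V0 genes, given further on, went both ways. ATP6V0C, the proteolipid of the rotating ring, read 10.37, 10.27 and 10.29 with DMSO, 10.37, 10.49 and 10.37 with manassantin, 10.49, 10.52 and 10.35 with rotenone and 10.96, 10.94 and 10.98 with digoxin, a rise of 0.65 ± 0.057 over DMSO (adjusted p = 1.12e-06). ATP6V0B, its companion in the ring, read 10.13, 10.15 and 10.18 with DMSO, 10.14, 10.27 and 10.12 with manassantin, 10.36, 10.51 and 10.36 with rotenone and 10.66, 10.66 and 10.74 with digoxin. It was higher by 0.26 ± 0.059 with rotenone (adjusted p = 0.0232) and 0.53 ± 0.059 with digoxin (adjusted p = 8.15e-06), and lower with rotenone than with digoxin by -0.28 (adjusted p = 0.00172). ATP6V0D1, the stalk subunit, and ATP6V0E1, a small membrane subunit, rose by 0.30 and 0.37 with digoxin.

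Of the 6 V1 subunits of the set, 5 were higher with digoxin, beside 28% of all genes higher and 26.9% lower. ATP6V1B2, a catalytic-head subunit that binds ATP, read 8.26, 8.32 and 8.31 with DMSO, 8.13, 8.20 and 8.24 with manassantin, 8.44, 8.70 and 8.57 with rotenone and 8.92, 9.09 and 9.11 with digoxin. The groups did not overlap, in the order manassantin, DMSO, rotenone and digoxin. The rise over DMSO was 0.28 ± 0.07 with rotenone (adjusted p = 0.0377) and 0.75 ± 0.07 with digoxin (adjusted p = 2.11e-06), and manassantin stood at -0.10 (adjusted p = 0.513). ATP6V1D, part of the central rotor, read 10.54, 10.59 and 10.58 with DMSO, 10.56, 10.50 and 10.54 with manassantin, 10.56, 10.50 and 10.54 with rotenone and 11.28, 11.28 and 11.35 with digoxin (0.74 ± 0.044, adjusted p = 3.92e-08). ATP6V1C1, which links the sectors, read 8.95, 8.81 and 8.96 with DMSO, 9.04, 8.68 and 8.82 with manassantin, 9.15, 8.98 and 9.14 with rotenone and 9.56, 9.59 and 9.56 with digoxin (0.66 ± 0.084, adjusted p = 2.57e-05).

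ATP6V1E1, a stator subunit, rose by 0.45 with digoxin and the accessory subunit gene ATP6AP1 by 0.41. The catalytic ATP6V1A had the smallest rise, 0.16 (adjusted p = 0.0172), and it did not pass without DMSO replicate 1 (adjusted p = 0.0724). ATP6V1H, a regulatory subunit that couples the sectors, was the exception at -0.24 ± 0.058 (adjusted p = 0.00375), with 9.35, 9.37 and 9.30 in DMSO and 9.16, 9.06 and 9.08 with digoxin. Centring moved it to -0.06 (adjusted p = 0.373).

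**Figure D3:**
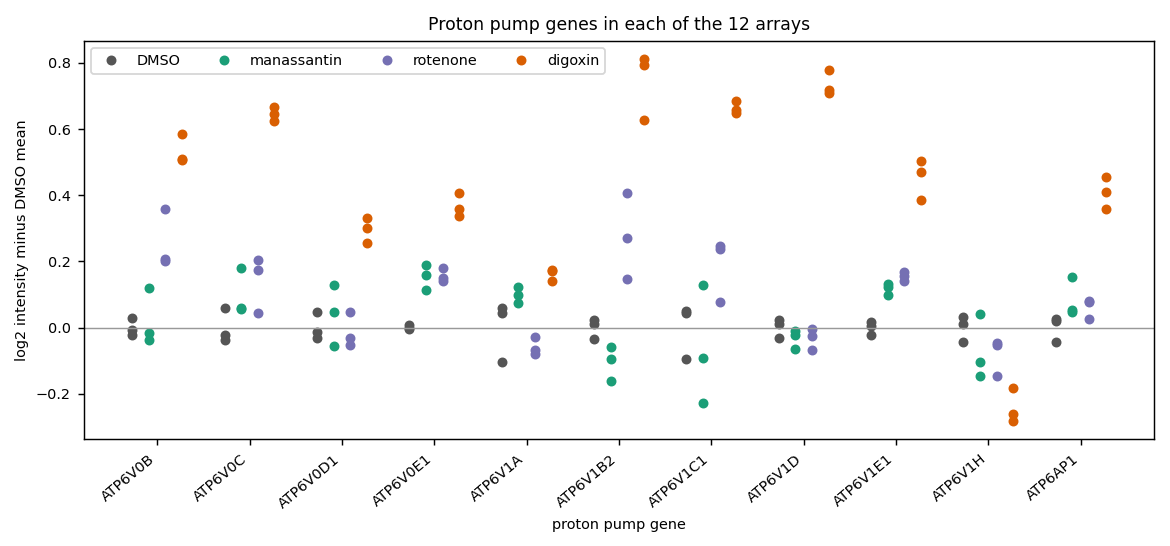
Log2 intensity of 11 proton pump genes in each of the 12 arrays, minus the gene's mean in the 3 DMSO arrays, coloured by group. The 3 digoxin arrays lay above all DMSO arrays for 10 genes and below them for ATP6V1H. The rotenone arrays of ATP6V1B2, ATP6V0B, ATP6V0E1, ATP6V1E1 and ATP6V1C1 lay between DMSO and digoxin.

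Among 9 other measured genes of the pump and its assembly, digoxin raised 3 and lowered 4, beside 28% of all genes higher and 26.9% lower. ATP6V0E2, a second small membrane subunit named after its values were seen, stood at -0.64 ± 0.071 (adjusted p = 9.22e-06), with 8.56, 8.75 and 8.59 in DMSO and 7.98, 8.05 and 7.95 with digoxin. DMXL1 and DMXL2, the rabconnectins that help V1 join V0, stood at -1.82 ± 0.13 and -0.82 ± 0.096 (DMXL1 was dim over all arrays), while ATP6V0A2, an isoform of the large membrane subunit, rose by 1.04 ± 0.084 (adjusted p = 5.37e-07). The isoforms of that subunit differed in direction. ATP6V0A1, named after its values were seen, rose by 0.75 ± 0.077 (adjusted p = 4.52e-06), and TCIRG1, the a3 isoform, read 8.08, 8.08 and 7.97 with DMSO and 7.59, 7.42 and 7.47 with digoxin (-0.55 ± 0.06, adjusted p = 8.15e-06). With manassantin TCIRG1 read 8.48, 8.38 and 8.31, higher than DMSO by 0.35 ± 0.06 (adjusted p = 0.0258), a call lost with each of the 6 arrays left out (adjusted p from 0.0573 to 0.126).

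Other lysosomal genes rose and fell with digoxin, beside 28% of all genes higher and 26.9% lower. Of 11 other enzymes and cofactors 1 rose and 7 fell, with a median of -0.31, led by HGSNAT, which acetylates heparan sulfate, at -0.64, the nuclease DNASE2 at -0.56 and the GM2 activator GM2A at -0.49. Of 13 other membrane proteins and transporters 3 rose and 4 fell, with SIDT2 at -1.32 ± 0.055, the amino acid transporter SLC36A1 at 1.26 ± 0.062 and CD164 at -0.50, or -0.13 as the mean of its probe sets (adjusted p = 0.0955). Of 14 genes of enzyme delivery 6 rose and 6 fell. GNPTAB, which starts the mannose 6-phosphate tag, stood at -1.23 ± 0.097 (adjusted p = 4.47e-07), NAGPA, which uncovers that tag, at -0.90 and the sorting receptor SORL1 at -0.76. With rotenone HGSNAT (-0.27) and SORL1 (-0.50) were lower, and the cystine exporter CTNS (0.31, or 0.11 as the mean of its probe sets) and AP1G1 (0.21), an adaptor subunit, higher. The SORL1 call held with each of the 6 arrays left out. The HGSNAT call was lost without DMSO replicate 1 or 2 or rotenone replicate 1 or 3, that of CTNS without DMSO replicate 3 or rotenone replicate 1 or 2, and that of AP1G1 without DMSO replicate 1 or 2 or any rotenone array, with adjusted p from 0.053 to 0.0869 in these 12 fits. With manassantin SIDT2 was higher at 0.33 (adjusted p = 0.0228), with 8.71, 8.76 and 8.76 against 8.43, 8.44 and 8.39 in DMSO, and was not called with any of the 6 arrays left out (adjusted p from 0.0584 to 0.111).

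With manassantin no member passed against DMSO, and 41 of 50 differences were positive, with a median of 0.10. Over all genes 6285 of 11963 differences were positive, with a median of 0.01. The 3 manassantin arrays did not overlap DMSO for 17 of 50 genes, beside 22.4% of all genes. The 14 genes with an unadjusted p under 0.05 compare with 15.8% of all genes at that level, and the smallest adjusted p was 0.104, for ATP6V0E1 at 0.15 ± 0.042. That gene read 11.43, 11.44 and 11.43 with DMSO, 11.54, 11.62 and 11.59 with manassantin, 11.57, 11.61 and 11.58 with rotenone and 11.77, 11.84 and 11.79 with digoxin. The manassantin and rotenone arrays thus covered the same range, and only the rotenone difference, 0.16 (adjusted p = 0.0472), was called. The 95% intervals of single pump genes with manassantin ran from as low as -0.26 for ATP6V1B2 to as high as 0.25 for ATP6V0E1. On these arrays the 18S rRNA control was lower than with DMSO by -0.56, with a range of 9.49 to 10.4 against 10.1 to 10.7, and the 3' minus 5' difference of the spiked DapX control was higher by 0.53, with a range of 2.75 to 3.72 against 2.55 to 3.19. The 18S control was also lower than with DMSO on the rotenone (-0.39) and digoxin (-0.31) arrays. There the DapX difference was higher, by 0.19 and 0.34. The part of these controls in the results was not tested.

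Of the 5 genes called with rotenone, NEU1 and NPC1 passed whichever of the 6 arrays was left out, and ATP6V0E1 in no such fit (adjusted p from 0.104 to 0.16). The count was 2 without any 1 of the 3 DMSO arrays or without rotenone replicate 2, 3 without rotenone replicate 3 and 4 without rotenone replicate 1, and the calls lost were of ATP6V0B, ATP6V0E1 and ATP6V1B2. ATP6V1E1 stood just outside the call at 0.15 (adjusted p = 0.0586).

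The direct comparison of manassantin with rotenone called 3 genes, all lower with manassantin, beside 8.47% of all genes called, 4.69% higher and 3.78% lower. They were NEU1 at -0.29 ± 0.051 (adjusted p = 0.0053), ATP6V1B2 at -0.38 ± 0.07 (adjusted p = 0.00751) and ATP6V0B at -0.23 ± 0.059 (adjusted p = 0.0313). The ATP6V0B call was lost in 5 of the 6 fits that left out an array and held without manassantin replicate 2. With the replicate number as a block, 6 were called, 2 higher and 4 lower with manassantin, the added ones being GUSB, IDS and ATP6V1C1. Over all 11963 genes the block raised the calls too, from 1013 to 1352, with 763 higher and 589 lower. TFEB was higher with manassantin by 0.30 without passing (adjusted p = 0.115).

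Manassantin and digoxin differed for 24 of 50 genes, 9 higher and 15 lower with manassantin, beside 56.7% of all genes, 28.1% higher and 28.6% lower, and rotenone and digoxin for 26, 7 higher and 19 lower with rotenone, beside 50.5%, 26.3% higher and 24.2% lower. Centring each array turned both splits to 3 higher and 32 lower, and moved all genes the same way, to 2176 higher and 7237 lower for manassantin against digoxin and 2095 and 6534 for rotenone against digoxin. All 11 pump genes differed between rotenone and digoxin, 10 of them lower with rotenone, and 10 of 11 between manassantin and digoxin, where ATP6V1A did not pass. LIPA was higher with manassantin than with digoxin by 1.19 ± 0.044 and with rotenone by 1.12 ± 0.044, and NPC1 was lower by -0.94 and -0.78.

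Probe sets of one gene were compared too. Of the 29 genes called with digoxin, 14 had further probe sets. For 11 of them another probe set was called in the same direction, for HEXA, NPC1 and PSAP none was, and for IDS others were called in the opposite direction as well. With digoxin both ATP6V0C probe sets rose (0.65 and 0.81), and 5 of 6 of ATP6V0E1 were called. Of the 5 genes called with rotenone, NPC1 and ATP6V0E1 had further probe sets, and none of those was called. As the mean of its probe sets ATP6V0E1 stood at 0.11 with rotenone (adjusted p = 0.182). Among the members, the chosen probe sets of IDS, ASAH1 and ATP6V0E1 carry the suffix _x_at, which marks probes that can match other transcripts too. That of DNASE2, which is no member, carries it as well.

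**Figure D4:**
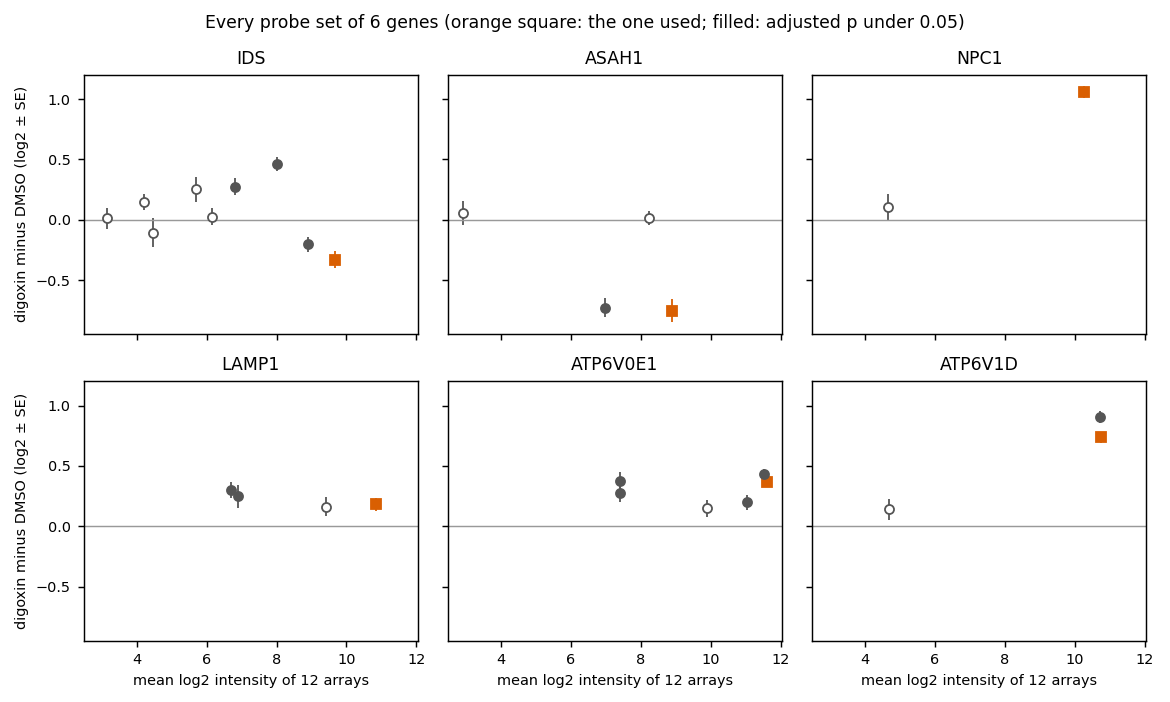
Digoxin minus DMSO log2 difference (vertical axis, ± SE, 3 arrays per group) against mean log2 intensity of 12 arrays for every probe set of 6 genes; orange squares are the brightest, filled symbols had an adjusted p under 0.05. The 9 probe sets of IDS ran from -0.33 to 0.46, while the probe sets of LAMP1, ATP6V0E1 and ATP6V1D were all above 0.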

How the data were processed

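Total RNA was isolated on a kit, amplified, biotin-labelled and put on GeneChip arrays, per the labels' protocols. The values the authors deposited are log2 summaries per probe set; no source used here states the background correction or normalization, and log2 was taken from their span, 1.65 to 13.8. Of 22277 probe sets 62 were controls, 19064 had 1 gene symbol in the platform annotation, 1043 several and 2108 none. The probe set brightest over the 12 arrays stood for each of the 11963 genes. limma 3.58.1 in R 4.3.3 (lmFit, eBayes) was fitted to all genes and arrays with the treatment group alone, leaving 8 residual degrees of freedom, and was tested on simulated data. Figures used Python 3.11.15 and matplotlib 3.10.9.

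The members and lists were chosen with earlier results of these data known. Called members with the largest differences within a role are named with all arrays, and up to 3 called genes of each other list. Deviations of same-numbered arrays from their group means correlated at 0.107 to 0.362 for manassantin and rotenone, all over 0.1, and at -0.035 to 0.185 in the other comparisons; what a replicate number stands for is not stated. The number of arrays limits the precision. Alternatives were another normalization, centring, dim genes left out, other uses of probe sets, a trended robust prior, array weights, fewer groups in the fit, the replicate block and leaving out each array.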

Additional observations from a re-analysis of the deposited data

How the results depend on the processing

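Digoxin against DMSO, manassantin and rotenone gave 29, 24 and 26 called members. Without 1 array these counts were 26 to 29, 19 to 24 and 23 to 26. Over all 11963 genes the calls were 6561, 6781 and 6039, and 5881 to 6329, 6000 to 6759 and 5365 to 5797 without 1 array. With rotenone against DMSO the count of 5 was 8 when dim genes were left out, 8 under a trended robust prior, 8 under array weights, 3 for averaged probe sets, and 2 to 4 without 1 array. With manassantin against DMSO the count of 0 was 1 when dim genes were left out and 1 under the trended prior (ATP6V0E1 each time), and 2 with the replicate block (CTSA and HEXA). With manassantin against rotenone the count of 3 was 5 after centring, 8 when dim genes were left out, 8 under the trended prior, 6 under array weights and 6 with the replicate block. With the block, members lower with digoxin against DMSO were 8 in place of 5 (CTSB, CTSF and CTSO added), and with rotenone against DMSO 1 in place of 0 (IDS). Of all 11963 genes, 3284 in place of 3214 were then lower with digoxin, and 542 in place of 405 with rotenone. Causes were not tested. Leaving dim genes out left 47 members and 7178 genes to test, and every count given for that setting is out of these. Over all genes, manassantin against DMSO gave 116 calls, and 71 after centring, 491 when dim genes were left out, 66 for every probe set, 503 under the trended prior, 278 under array weights, 4 in a fit on its 2 groups, 291 with the block and 7 to 25 without 1 array. Rotenone against DMSO gave 830, and 1301, 1312 and 1614 when dim genes were left out, under the trended prior and under array weights, and 346 to 500 without 1 array. Manassantin against rotenone gave 1013, and 1540, 1545 and 500 to 835 when dim genes were left out, under the trended prior and without 1 array. It gave 1014 after centring, 1364 under array weights and 1352 with the block.

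Under averaged probe sets LAMP1 and LAMP2 reversed with rotenone against DMSO, at -0.021 and -0.0090, and IDS with digoxin against DMSO, at 0.059. With digoxin against DMSO, SCARB2 reversed under quantile normalization, at 0.022, and after centring, at 0.049, and LAMP2 after centring, at 0.14, with -0.091 to 0.0054 without 1 array. Only IDS among these reversals had been called. Signal over background could not be judged from the deposited values.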
